A study of Mus musculus with 12 samples.

Results

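The 10 glycolytic enzyme genes described here, Hk1, Gpi1, Pfkp, Aldoa, Tpi1, Gapdh, Pgk1, Eno1, Pkm and Ldha, were chosen by name, and all 10 had a row in the table of 12145 genes. RNA was measured in cortical cultures of C57BL6 mouse embryos (E16.5 to E17.5). Every culture had been infected on day 6 in vitro with a lentivirus, at a summed multiplicity of infection of 2, so no group was free of virus. The virus carried miR-29c or was empty. On day 14 the cultures went through oxygen-glucose deprivation (OGD, a culture model of ischemia) for 3 h and then 4 h in normal medium, or through a sham wash in normal oxygen. The groups were sham-empty (n = 2 libraries with read counts), sham-miR-29 (n = 3), OGD-empty (n = 3) and OGD-miR-29 (n = 3). Libraries with the same replicate number came from cultures dissected on the same day. The level of mature miR-29c was not analysed here, and the cell types that took up the virus are not given in the sources used here.

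Glycolysis splits glucose into pyruvate in the cytosol and yields ATP without oxygen, and lactate dehydrogenase turns pyruvate into lactate when respiration stops. In brain, neurons and astrocytes share this work, and several steps have isozymes that differ between cell types. Many genes of the pathway are textbook targets of hypoxia-inducible factor (HIF), a transcription factor that is stable when oxygen is low. miR-29c is a microRNA, a short RNA that lowers the level or translation of mRNAs whose 3′ UTR pairs with its seed.

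Among the 10 genes, Aldoa, Tpi1, Pkm and Ldha were higher with the miR-29 virus than with the empty virus after OGD, by 1.74-fold to 2.55-fold, 4 of 10 where 17.2% of all tested genes were higher. After OGD with the empty virus, 8 of the 10 had a lower estimate than in sham-empty cultures, but none passed the test, where 3.61% of all genes passed as lower. With the dissection day as a block, Tpi1 and Pkm passed as lower, 2 of 10 where 5.61% of all genes did. For Aldoa, Tpi1 and Pkm the response to OGD differed between the viruses, 3 of 10 where 4.72% of all genes differed in that direction. Hk1, Gpi1, Pfkp, Gapdh, Pgk1 and Eno1 passed no test in any of the 6 comparisons without a correction for gene length.

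The mature miR-29c sequence is shown first, because the virus differs by it, with its seed (bases 2 to 8) in capitals. It is encoded on mouse chromosome 1 at chr1:195037600-195037621 on the plus strand (GRCm38.p6, RefSeq).
mmu-miR-29c-3p: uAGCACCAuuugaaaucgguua
The DNA letters that pair with this seed, TGGTGCT, were in the longest annotated 3′ UTR of 0 of the 10 genes, against 13% of 20987 genes with a 3′ UTR in GENCODE M21. This says only that these letters are not in those UTRs.

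Promoters are shown for Ldha and Pkm, genes that were both higher with the miR-29 virus after OGD and that lie at opposite ends of a motif search. The windows hold 250 bases before and 50 bases after the first listed RefSeq start of each gene (GRCm38.p6, 10 of 10 genes matched). The letters searched, on both strands, were ACGTG and GCGTG, the core of the element that HIF binds. CACGTG, which overlaps the E-box of other factors, reads ACGTG on both strands. Matches are in capitals.
Ldha, chr7:46845554-46845853, plus strand: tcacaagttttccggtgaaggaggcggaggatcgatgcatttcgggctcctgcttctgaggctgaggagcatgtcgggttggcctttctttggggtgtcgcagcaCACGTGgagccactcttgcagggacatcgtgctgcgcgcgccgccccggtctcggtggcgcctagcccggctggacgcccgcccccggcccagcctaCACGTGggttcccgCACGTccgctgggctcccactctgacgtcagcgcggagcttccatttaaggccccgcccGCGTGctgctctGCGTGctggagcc
Pkm, chr9:59656326-59656625, plus strand: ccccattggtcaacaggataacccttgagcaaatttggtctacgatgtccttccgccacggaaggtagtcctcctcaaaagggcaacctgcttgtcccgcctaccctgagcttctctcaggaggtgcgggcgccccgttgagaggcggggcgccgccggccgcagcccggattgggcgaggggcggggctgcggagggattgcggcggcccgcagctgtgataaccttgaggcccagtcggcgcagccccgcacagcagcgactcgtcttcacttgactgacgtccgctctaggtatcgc
The Ldha window held 7 matches at 5 places and the Pkm window held 0. Pfkp had 4 matches, Gapdh 3, Pgk1 2 and Eno1 2, while Hk1, Gpi1, Aldoa and Tpi1 had 0. One or more matches were therefore in 5 of 10 members, against 43.8% of 27025 promoters of the same length. Each of these 5 held 2 or more matches, as did 20.8% of the promoters searched. Neither difference in share was tested. Of the 4 genes that were higher with the miR-29 virus after OGD, Ldha was the only one with a match in this window. Listed promoters numbered 3 for Aldoa and Eno1 and 2 for Hk1, Pkm and Ldha, and those after the first were not searched.

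Levels are given as normalised counts (CPM, the count scaled to a fixed library total) on TMM-scaled library sizes, a scaling that sets the bulk of genes equal between libraries. The 11 libraries held 1337564 to 6616920 counts, of which 57.6% to 84.1% fell on mitochondrial genes, leaving 231500 to 1362484 counts for all others. Per kilobase of annotated exon, the order of the mean level over the libraries was Aldoa (37.6 CPM per kb), Pkm (27.8), Tpi1 (17.9), Ldha (10.6), Gpi1 (7.62), Pgk1 (4.46), Pfkp (4.10), Hk1 (3.69), Eno1 (1.67) and Gapdh (0.985). Pgk1, Pfkp and Hk1 lay close together in this order. The length used is the union of all annotated exons of a gene. The counting region is not given in the sources used here, so the order is uncertain. The row of Gapdh, a transcript widely used as a reference for its abundance, held only 5 to 25 reads per library, and that of Eno1 held 10 to 43. Copies of at least 95% identity over at least 50% of the coding sequence were found in 74 other annotated genes for Gapdh, 3 for Eno1, 2 each for Pgk1 and Ldha, and 1 each for Pkm and Gpi1. None was found for Hk1, Pfkp, Aldoa or Tpi1. How the authors treated reads that match several copies is not given in the sources used here, so the levels of genes with copies, Gapdh above all, are uncertain.

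**Figure D1:**
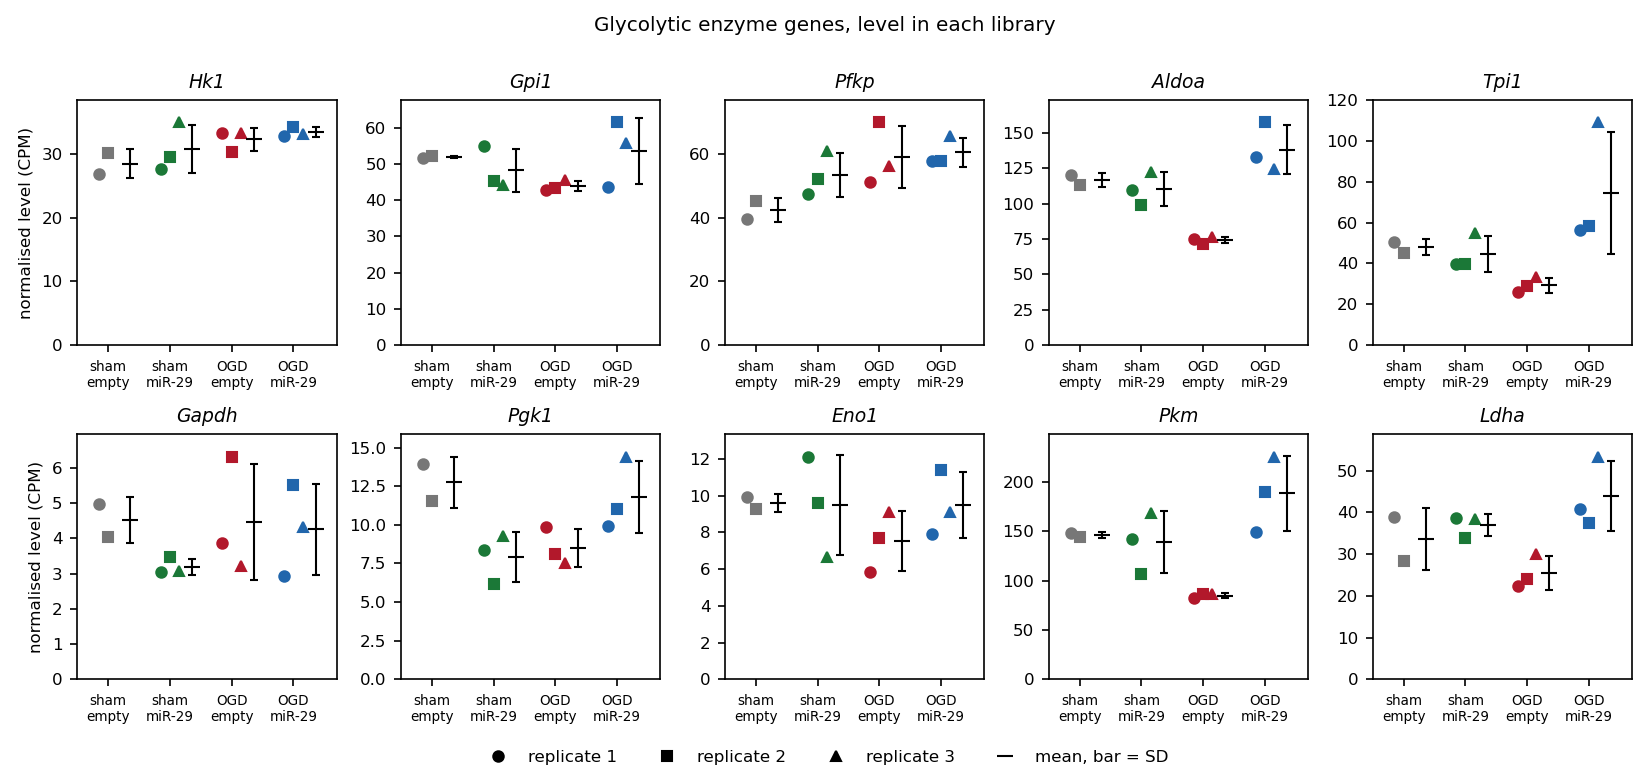
Normalised level in CPM (vertical axis, from 0) of each of the 10 genes in the 11 libraries, by group (horizontal axis). Markers stand for replicate numbers, horizontal marks for group means and bars for the SD. For Aldoa, Tpi1, Pkm and Ldha the 3 OGD-empty libraries lie below the 3 OGD-miR-29 libraries.

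The comparison of the viruses after OGD asks whether miR-29c changes the RNA of injured cultures. Pkm encodes pyruvate kinase M, which makes pyruvate and ATP in the last step of glycolysis (chromosome 9, 59656368 to 59679375 on mm10, plus strand). Its level was 82.3, 86.3 and 86.3 CPM in the OGD-empty libraries and 149, 190 and 226 CPM in the OGD-miR-29 libraries. The OGD-miR-29 libraries were all higher, and the groups did not overlap. The difference was 2.22-fold (log2 1.15 ± 0.21 SE, edgeR quasi-likelihood test with Benjamini-Hochberg adjustment over 12119 genes, adjusted p = 0.000749), in the same direction on 3 of 3 dissection days.

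Tpi1 encodes triosephosphate isomerase, which interconverts the 3-carbon products of the aldolase step (chromosome 6, 124810586 to 124814296, minus strand). It was at 25.8, 28.9 and 33.2 CPM in the OGD-empty and at 56.4, 58.3 and 109 CPM in the OGD-miR-29 libraries. Replicate 3 of OGD-miR-29 stood well above the other two of its group, and the groups did not overlap. Tpi1 was 2.55-fold higher (log2 1.35 ± 0.24 SE, edgeR adjusted p = 0.000726), on 3 of 3 days.

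Aldoa encodes aldolase A, which cuts fructose-1,6-bisphosphate (chromosome 7, 126795234 to 126800751, minus strand). Its level was 74.9, 71.8 and 76.1 CPM in the OGD-empty and 133, 158 and 125 CPM in the OGD-miR-29 libraries. The lowest OGD-miR-29 library was above the highest OGD-empty library. The difference was 1.86-fold (log2 0.90 ± 0.18 SE, edgeR adjusted p = 0.00132), on 3 of 3 days.

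Ldha encodes the lactate dehydrogenase A subunit (chromosome 7, 46841475 to 46855627, plus strand). The OGD-empty libraries held 22.2, 23.9 and 30.0 CPM and the OGD-miR-29 libraries 40.8, 37.4 and 53.4 CPM. Again all OGD-miR-29 libraries were higher. Ldha was 1.74-fold higher (log2 0.80 ± 0.21 SE, edgeR adjusted p = 0.00631). Without replicate 1 in all groups, its log2 difference was 0.76 and its edgeR adjusted p was 0.1002.

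The remaining genes did not pass the test after OGD. The log2 differences were 0.39 ± 0.26 SE for Pgk1 (phosphoglycerate kinase, the first ATP-yielding step), 0.37 ± 0.29 SE for Eno1 (enolase 1), 0.28 ± 0.19 SE for Gpi1 (glucose-6-phosphate isomerase), 0.05 ± 0.19 SE for Hk1 (hexokinase 1, the entry step) and 0.04 ± 0.19 SE for Pfkp (platelet-type phosphofructokinase, a control point). Gapdh (glyceraldehyde-3-phosphate dehydrogenase) was at -0.11 ± 0.36 SE. Of these, only the Pgk1 libraries did not overlap between the groups, at 9.88, 8.13 and 7.50 CPM with the empty virus and 9.92, 11.03 and 14.4 CPM with the miR-29 virus. That gap between 9.88 and 9.92 CPM is narrow beside the spread within each group.

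In all, 4 of 10 genes passed the test as higher and 0 as lower, where 17.2% of all tested genes passed as higher and 19.9% as lower. An unadjusted p under 0.05 was found for the same number of the 10, 4, and for 47.3% of all genes. The groups did not overlap for 5 of 10 genes as higher and 0 as lower, against 25% and 25.2% of all genes. The median log2 difference of the 10 genes was 0.38, and that of all genes was 0.02.

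**Figure D2:**
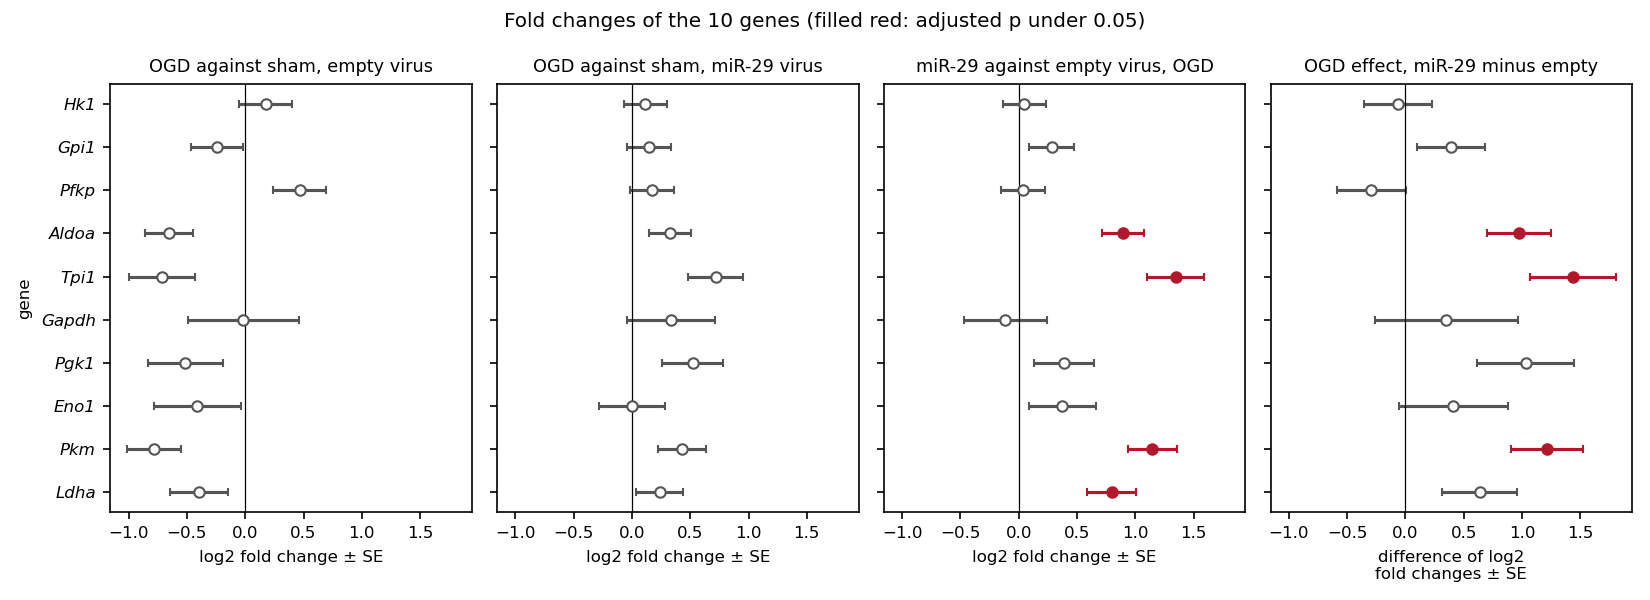
Log2 fold change with its SE (horizontal axis) of the 10 genes (vertical axis) for the comparisons and, in the panel of the interaction, the difference between log2 fold changes. Filled red points had an adjusted p under 0.05: Aldoa, Tpi1, Pkm and Ldha between the viruses after OGD, and Aldoa, Tpi1 and Pkm in the interaction.

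Gene length moved with the groups. A smooth trend of log2 level on span, relative to the mean over libraries, was fitted in each library. Its mean over the shortest 10% of genes (span up to 1316 bp), less that over the longest 10% (at least 148653 bp), was taken. This difference was -1.78 in OGD-empty replicate 2, -0.54 and -0.60 in replicates 1 and 3, and 0.56 to 0.71 in the OGD-miR-29 libraries. It was 0.17 to 0.33 in sham-empty and -0.17 to 0.44 in sham-miR-29 libraries. Of the 10 genes, Tpi1 (span 3711 bp) and Aldoa (5518 bp) are among the shortest, with Gapdh (4753 bp), while Hk1 (111054 bp) and Pfkp (69010 bp) are the longest.

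With the length trend removed from each library and the replicate number as a block, the edgeR test called 4 genes higher between the viruses after OGD, but not the same 4. Pkm kept its difference at 1.00 ± 0.19 SE (adjusted p = 0.000358). Tpi1 was at 0.81 ± 0.18 SE (adjusted p = 0.00194) and Ldha at 0.52 ± 0.19 SE (adjusted p = 0.0392). Aldoa was at 0.44 ± 0.18 SE and no longer passed (adjusted p = 0.0668), while Hk1 passed at 0.64 ± 0.19 SE (adjusted p = 0.0115). Of all genes with a length, 11.9% passed as higher under this setting. A trend on exon length in place of span, again with the block, moved Pfkp most, from 0.04 to 0.85 ± 0.18 SE (edgeR adjusted p = 0.00194). Aldoa was at 0.60, Tpi1 at 0.97, Pkm at 1.14 and Ldha at 0.57 there. This second correction was chosen after seeing the data, and the share of all genes that passed under it is not given here. The direction thus held for Aldoa, Tpi1, Pkm and Ldha under both corrections. With the span trend removed and the block, the differences of Tpi1, Aldoa and Ldha were smaller than without a correction, by a factor of over 1.5.

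**Figure D3:**
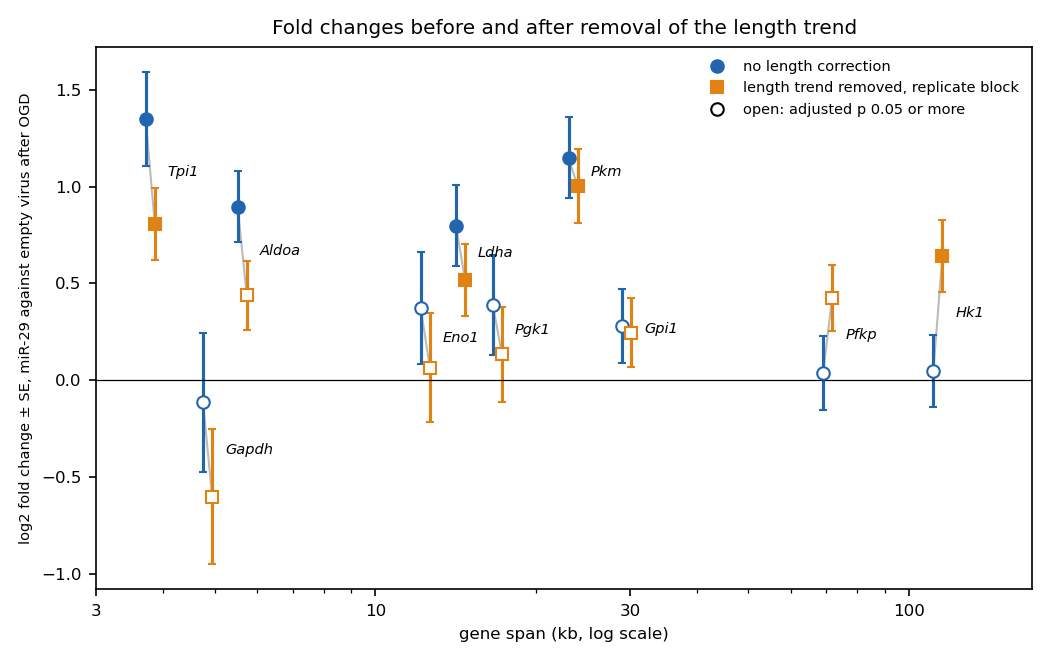
Log2 fold change with SE between the viruses after OGD (vertical axis) against the span of the gene in kb (horizontal axis, log scale), without a length correction (circles) and with the length trend removed and a replicate block (squares), with open symbols for an adjusted p of 0.05 or more. The short genes Tpi1 and Aldoa moved down, the long gene Hk1 moved up, and Pkm stayed near 1.

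Reads of neighbouring genes may be in these counts, since the counting region is not given in the sources used here. Spsb2 lies within 10 kb downstream of Tpi1 and its row held 1.48 times the count of Tpi1; Usp5, whose own downstream stretch holds Tpi1, held 1.72 times. Both rows were higher with the miR-29 virus after OGD too, by log2 1.33 for Spsb2 (edgeR adjusted p = 0.000542) and 1.19 for Usp5 (edgeR adjusted p = 0.000603). The part of these neighbours in the Tpi1 difference was not tested. Near Aldoa, Tbx6 held 0.321 times the Aldoa count and was also higher (log2 0.83, edgeR adjusted p = 0.00516). Near Pkm, Parp6 held 0.248 times its count (log2 0.54, edgeR adjusted p = 0.0344). Ldha and Eno1 had no such neighbour row. Gapdh lies in the 10 kb downstream of Ncapd2, whose row held 24.6 times the Gapdh count, so the Gapdh values carry the least weight of the 10.

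Cell markers also moved between these groups. The summed level of 9 of 9 neuron markers was 1036 to 1290 CPM in the OGD-empty and 586 to 761 CPM in the OGD-miR-29 libraries, against 715 to 868 CPM in sham-empty and 718 to 965 CPM in sham-miR-29. Of the neuron markers 5 were lower and 1 higher between the viruses after OGD, where 19.9% and 17.2% of all genes were. Astrocyte markers (6 of 7 in the table) summed to 96.6 to 110 CPM in the OGD-empty and 62.0 to 75.9 CPM in the OGD-miR-29 libraries. Microglia markers (3 of 6 in the table) summed to 18.8 to 28.0 CPM and 32.1 to 36.1 CPM. Oligodendrocyte markers (3 of 6) gave 8.58 to 9.73 CPM and 9.62 to 14.2 CPM, and fibroblast and mural markers (2 of 5) 5.36 to 9.03 CPM and 5.88 to 8.65 CPM. Dividing-cell markers (1 of 3) gave 8.04 to 8.18 CPM and 2.76 to 6.25 CPM. Of these other markers 1 astrocyte and 1 dividing-cell gene were lower, and 1 microglia and 1 oligodendrocyte gene higher. Of the endothelial markers 0 of 4 were in the table, and of the red cell markers 0 of 5, so neither could be summed. These sums and calls are not corrected for the length trend described above, and its part in the marker differences was not tested. In bulk RNA, fewer cells of a type and less RNA per cell cannot be told apart. The part of cell makeup in the enzyme differences was not tested.

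The comparison of OGD with sham under the empty virus asks what the injury does without added miR-29c. For Pkm, the sham-empty libraries held 148 and 144 CPM, above the 82.3 to 86.3 CPM of the 3 OGD-empty libraries given above. The groups did not overlap, and the log2 difference was -0.78 ± 0.23 SE (edgeR adjusted p = 0.0521), just short of the threshold. With the replicate block, Pkm passed at -0.88 (edgeR adjusted p = 0.0236), and it passed in the blocked fit with length correction as well, at -0.78 (adjusted p = 0.0356).

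Tpi1 was at 50.7 and 45.1 CPM in sham-empty libraries, also above all OGD-empty libraries. Its log2 difference was -0.72 ± 0.28 SE (edgeR adjusted p = 0.134), and -0.90 with the replicate block (edgeR adjusted p = 0.0235). With block and length correction together it was -0.51 (edgeR adjusted p = 0.217). Aldoa held 120 and 113 CPM in sham-empty libraries, which did not overlap with OGD-empty. Its log2 difference of -0.65 ± 0.20 SE did not pass (edgeR adjusted p = 0.0632), nor did it with the block (adjusted p = 0.0616).

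Ldha, one of the textbook HIF targets, was at 38.8 and 28.4 CPM in sham-empty libraries, and the lower of these lay within the OGD-empty range of 22.2 to 30.0 CPM. Its log2 difference was -0.40 ± 0.25 SE (edgeR adjusted p = 0.334). Pgk1, another such target, was at 13.9 and 11.6 CPM in sham-empty and 7.50 to 9.88 CPM in OGD-empty libraries (log2 -0.51 ± 0.32 SE, edgeR adjusted p = 0.338). So at 4 h of recovery neither had an estimate above sham.

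Pfkp stood on the other side. It was at 39.8 and 45.1 CPM in sham-empty and at 51.3, 70.0 and 56.3 CPM in OGD-empty libraries, with no overlap. The log2 difference was 0.47 ± 0.23 SE (edgeR adjusted p = 0.215), and it was -0.18 with the exon length trend removed and a replicate block. Hk1 was the only other gene with a higher estimate, at 0.17 ± 0.23 SE.

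In this comparison 0 of 10 genes passed the edgeR test in either direction, where 1.48% of all genes passed as higher and 3.61% as lower. DESeq2 (9 genes with an adjusted p) and limma-voom also called 0, where 5.5% and 3.2% of all genes passed, and 3 of the 10 genes had an unadjusted edgeR p under 0.05, where 23.7% of all genes did. With the replicate block 2 of 10 passed as lower, where 5.61% of all genes did, and with the length correction added 1 of 10, where 2.75% did. The groups did not overlap for 6 genes as lower and 2 as higher, where 21.6% and 22% of all genes did so. The median log2 difference was -0.41 for the 10 genes and 0.02 for all genes.

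In the authors' deposited table of the same comparison, Pkm had a log2 fold change of 0.00, Tpi1 -0.27, Aldoa 0.04 and Pfkp 0.90. The false discovery rates of the 10 genes in the authors' deposited table were 0.415 to 1.00. Of the 12145 genes in that table, 6 had a false discovery rate under 0.05. Which libraries entered the authors' table is not given in the sources used here. Above 0 in the authors' deposited table were 6 of the 10 genes, and 4 were below 0, against 8 below 0 here. Aldoa, Gpi1 (0.13), Gapdh (0.05) and Pkm differed in sign.

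OGD against sham was also compared under the miR-29 virus. All 10 genes had an estimate of 0 or more, from log2 0.00 for Eno1 to 0.72 ± 0.24 SE for Tpi1. Tpi1 held 39.8, 39.6 and 55.0 CPM in sham-miR-29 libraries, all below the 56.4 CPM of the lowest OGD-miR-29 library. The groups did not overlap for Tpi1, Aldoa and Pgk1, 3 of 10 as higher against 8.19% of all genes, and for 0 as lower against 8.69%. None of the 10 passed the edgeR test (smallest adjusted p = 0.452, for Tpi1), and 2 had an unadjusted p under 0.05, where 9.17% of all genes did. DESeq2 called 0 of the 7 genes to which it gave an adjusted p, limma-voom called 0 of the 10, and each called 0.0165% of all genes. In edgeR 0.0165% of all genes passed as higher and 0% as lower. Pkm, at 143, 107 and 169 CPM in sham-miR-29 libraries, overlapped with OGD-miR-29 and was at 0.43 ± 0.21 SE (edgeR adjusted p = 0.542).

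Without OGD, none of the 10 genes passed a test between the viruses. The log2 differences between sham-miR-29 and sham-empty ran from -0.64 for Pgk1 to 0.33 for Pfkp, with a median of -0.07. Pgk1 held 8.34, 6.15 and 9.26 CPM in sham-miR-29 and 13.9 and 11.6 CPM in sham-empty libraries, with no overlap, and its difference of -0.64 ± 0.33 SE had an edgeR adjusted p of 1.000. In edgeR, DESeq2 and limma-voom 0 of 10 genes and 0% of all genes passed, and 0 of the 10 had an unadjusted edgeR p under 0.05, where 3.34% of all genes did. Groups did not overlap for 1 gene as higher and 2 as lower, against 10.6% and 11.9% of all genes.

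The interaction asks whether the response to OGD differs between the viruses, as the log2 change with miR-29 less the log2 change with empty virus. It was 1.43 ± 0.37 SE for Tpi1 (edgeR adjusted p = 0.0231), 1.21 ± 0.31 SE for Pkm (edgeR adjusted p = 0.0225) and 0.98 ± 0.27 SE for Aldoa (edgeR adjusted p = 0.0326). These 3 of 10 passed as positive and 0 as negative, where 4.72% and 3.66% of all genes did. An unadjusted p under 0.05 was found for 4 of the 10 and for 27.9% of all genes. For all 3 the estimate was below 0 with the empty virus and above 0 with the miR-29 virus. Pgk1 was at 1.03 ± 0.42 SE (edgeR adjusted p = 0.112) and Ldha at 0.64 ± 0.32 SE (edgeR adjusted p = 0.198), and neither passed. The median of the 10 was 0.53 and that of all genes -0.03.

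These calls were close to the threshold. Without the length trend, Pkm alone passed (1.09, 1 of 10 against 2.81% of all genes as positive), and Aldoa was at 0.53 (edgeR adjusted p = 0.2502). When the block was added, Pkm (1.18) and Tpi1 (1.08) passed, where 4.44% of all genes did. Each of these 3 calls was lost in many of the 14 fits with a library or a replicate number left out. Such fits hold fewer libraries for every gene, and without a sham-empty library that group has 1. Whether these losses are particular to the 3 genes was not tested. Over all 14 such omissions the estimate was 0.78 to 1.15 for Aldoa, 1.07 to 1.61 for Tpi1 and 1.03 to 1.38 for Pkm.

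OGD-miR-29 was set beside sham-empty as well, a comparison that the authors also deposited and that shares its libraries with those above. None of the 10 genes passed (edgeR smallest adjusted p = 0.709, for Tpi1 at log2 0.63 ± 0.28 SE), 2 had an unadjusted p under 0.05, where 6.94% of all genes did, and DESeq2 and limma-voom called 0. With each of the 3 tools 0% of all genes passed. Pfkp was at 0.50 ± 0.23 SE, and its OGD-miR-29 libraries, at 57.9, 57.9 and 65.9 CPM, lay above both sham-empty libraries. Groups did not overlap for 5 genes as higher, against 13.5% of all genes, and 0 as lower, against 17.1%. In the authors' deposited table the log2 fold changes were 1.13 for Pkm, 0.98 for Tpi1, 0.94 for Aldoa and 0.90 for Pfkp. The false discovery rates there were 0.970 to 0.994 over the 10 genes, and 2 of 12145 genes were under 0.05.

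Over the 11 libraries the members did not vary as one. Pearson's r of each gene's log2 level with the mean of the other 9 was 0.94 for Pkm, 0.90 for Tpi1, 0.81 for Aldoa, 0.79 for Ldha, 0.72 for Gpi1, 0.59 for Pgk1 and 0.35 for Eno1. It was 0.08 for Hk1, 0.06 for Gapdh and 0.01 for Pfkp. These values describe 11 libraries that share groups, dissection days and the length trend. Of 3229 genes with a mean count of at least 50, those most like the mean of the 10 were Tubb2b, a beta-tubulin gene (r = 0.96 over 11 libraries), Fam109b, Smdt1, 1700013F07Rik, Mbd6, n-R5s41, Trpm4, Tmem167b, Wipi2 and Sult4a1 (r = 0.96 for each). Their log2 differences between the viruses after OGD, a direction that this choice fixes, ran from 0.80 for Wipi2 to 1.53 for 1700013F07Rik.

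Several steps have a second isozyme, and the ratio of 2 genes within a library does not depend on scaling. Eno2, the neuronal enolase, held 63 to 403 reads per library and Eno1 10 to 43. The log2 ratio of Eno1 to Eno2 was -2.54 and -2.80 in sham-empty, -1.98, -2.35 and -3.33 in sham-miR-29, -2.98, -2.19 and -2.27 in the OGD-empty, and -3.20, -2.82 and -2.99 in the OGD-miR-29 libraries. Eno2 was thus the larger row in all 11 libraries, and the groups overlapped in the 4 comparisons tested for ratios. OGD-miR-29 and sham-empty libraries, which were not among them, did not overlap.

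The ratio of Ldha to Ldhb, the heart-type lactate dehydrogenase subunit, was -0.58 and -0.73 in sham-empty, -0.47, -0.34 and -0.31 in sham-miR-29, -0.47, -0.67 and -0.14 in the OGD-empty, and -0.18, -0.50 and -0.31 in the OGD-miR-29 libraries. Ldhb was the larger row in each library. Aldoa exceeded Aldoc, the brain-type aldolase, by log2 3.12 to 4.61, but Aldoc held only 4 to 55 reads.

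No ratio passed a test. Between the viruses after OGD the differences were -0.52 for Eno1 to Eno2, 0.31 for Aldoa to Aldoc and 0.10 for Ldha to Ldhb, with two-sided exact permutation p of 0.2, 0.5 and 0.7 (adjusted over 12 tests 0.600, 0.750 and 0.800). The smallest p that 3 against 3 libraries can give is 0.1, and 2 against 3 libraries 0.2, so these tests could not pass 0.05. Aldoa to Aldoc (-0.68) and Ldha to Ldhb (0.28) did not overlap between sham-miR-29 and sham-empty libraries, each at an exact permutation p of 0.2. With a pseudocount of 5 in place of 1 the Aldoa to Aldoc difference was -0.27, since Aldoc held only 4 and 10 reads in the sham-empty libraries.

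**Figure D4:**
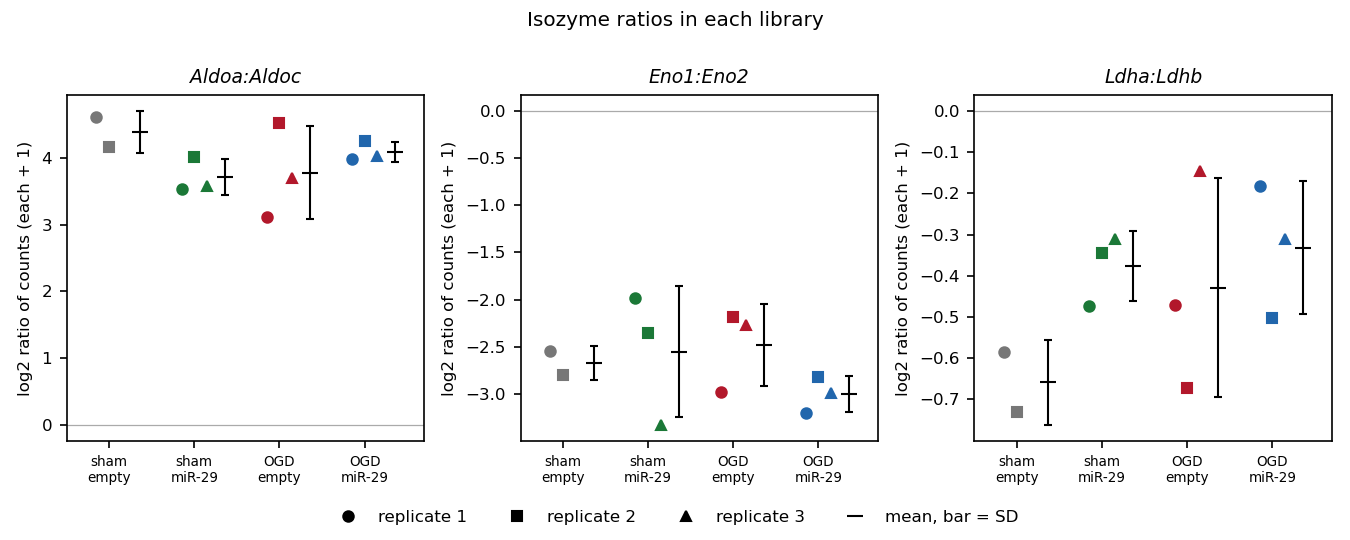
Log2 ratio of the counts of 2 isozyme genes, each with 1 added (vertical axis), in the 11 libraries by group (horizontal axis), with markers for replicate numbers, horizontal marks for means and bars for the SD. Eno2 and Ldhb exceed Eno1 and Ldha in every library, and the OGD-empty and OGD-miR-29 libraries overlap in each panel.

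Among the other genes of glycolysis, 11 of 16 listed were tested, and 6 were higher and 0 lower between the viruses after OGD, with a median of 0.65, where 17.2% of all genes were higher and 19.9% lower with a median of 0.02. Eno2 was at log2 0.84 ± 0.20 SE (edgeR adjusted p = 0.00323) and Ldhb at 0.69 ± 0.20 SE (edgeR adjusted p = 0.0116). Pfkm, the muscle-type phosphofructokinase, was at 0.65 ± 0.20 SE (edgeR adjusted p = 0.0144), although its neighbour Asb8 held over 0.5 of its count. Gapdhs, the sperm-type Gapdh, was at 1.15 ± 0.26 SE (edgeR adjusted p = 0.00232), with Atp4a and Tmem147 as such neighbours. Aldoc, with Pigs as such a neighbour, was at 0.35 ± 0.32 SE and did not pass. In the length-corrected, blocked fit 4 of the 11 were higher, against 11.9% of all genes. After OGD with the empty virus 0 of 11 passed, where 1.48% of all genes passed as higher and 3.61% as lower. In the interaction 1 of 11 passed as positive and 0 as negative, where 4.72% and 3.66% of all genes did. It was Eno2 (1.05 ± 0.30 SE, edgeR adjusted p = 0.0337), which did not pass in the length-corrected, blocked fit (0.73, adjusted p = 0.1004).

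Of 9 tested transporters of glucose, lactate and pyruvate, 3 were higher and 1 lower between the viruses after OGD, against 17.2% and 19.9% of all genes. Bsg, the chaperone that brings lactate transporters to the membrane, was at 1.03 ± 0.18 SE (edgeR adjusted p = 0.000618). Mpc2, a subunit of the mitochondrial pyruvate carrier, was at 0.99 ± 0.26 SE (edgeR adjusted p = 0.00577), and Slc2a3, the neuronal glucose transporter, at 0.62 ± 0.19 SE (edgeR adjusted p = 0.0162). The lower one was Slc16a7, a monocarboxylate transporter, at -1.17 ± 0.29 SE (edgeR adjusted p = 0.00491). It did not pass in the length-corrected, blocked fit, at -0.37 (adjusted p = 0.327), while Bsg, Mpc2 and Slc2a3 did. After OGD with the empty virus 2 transporter genes were lower, Mpc2 at -1.07 ± 0.31 SE (edgeR adjusted p = 0.0473) and Bsg at -0.73 ± 0.20 SE (edgeR adjusted p = 0.0423). These were 2 of 9, against 3.61% of all genes. In the length-corrected, blocked fit Bsg was at -0.42 (adjusted p = 0.256) and did not pass, and the 2 that did were Mpc2 and Slc2a3 (-0.95, adjusted p = 0.0102). In the interaction 2 were positive, Bsg and Mpc2, and 1 negative, Slc16a7, against 4.72% and 3.66% of all genes. With both corrections Bsg (0.65, edgeR adjusted p = 0.128) and Slc16a7 (-0.89, edgeR adjusted p = 0.271) did not pass there, while Mpc2 and Slc2a3 (1.11, edgeR adjusted p = 0.0149) did.

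Pyruvate dehydrogenase and the citric acid cycle, which take over from pyruvate, had 21 of 22 genes tested, with 12 higher and 0 lower between the viruses after OGD (median 0.50), against 17.2% and 19.9% of all genes. Mdh1, cytosolic malate dehydrogenase, had a mean of 109 ± 7.77 CPM (SD, n = 3) with the empty virus and 236 ± 40.7 CPM (SD, n = 3) with the miR-29 virus after OGD (log2 1.12 ± 0.19 SE, edgeR adjusted p = 0.000603). The succinate dehydrogenase subunits Sdhc (log2 1.22) and Sdhd (log2 1.17) were higher too, as was Sdhb, at 16.1 ± 4.29 CPM (SD, n = 3) with the empty virus and 43.5 ± 6.19 CPM (SD, n = 3) with the miR-29 virus. Neighbour rows held over 0.5 of the count of Mdh1 (Gm22990), Sdhb (Atp13a2) and Sdhc (1700009P17Rik), so these are uncertain. In OGD-empty against sham-empty 3 of the 21 were lower and 0 higher, against 3.61% and 1.48% of all genes, among them Mdh1 at -1.10 ± 0.21 SE (edgeR adjusted p = 0.00645) and Sdhd at -0.90 ± 0.26 SE (edgeR adjusted p = 0.0470). In the interaction 5 were positive and 0 negative, against 4.72% and 3.66%. In the length-corrected, blocked fit 9 of the 21 were higher between the viruses after OGD, against 11.9% of all genes, and 2 lower in OGD-empty against sham-empty, against 2.75%. Sdhd was not among the latter (-0.63, edgeR adjusted p = 0.156).

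In the pentose phosphate branch 2 of 6 tested genes were higher between the viruses after OGD, where 17.2% of all genes were, Tkt (1.15 ± 0.25 SE, edgeR adjusted p = 0.00213) and Taldo1 (0.87 ± 0.25 SE, edgeR adjusted p = 0.0122). Of 10 tested regulators of flux 1 was higher, below that share, Mlx (0.60 ± 0.23 SE, edgeR adjusted p = 0.0419), and of 3 tested splicing regulators of Pkm 1, Srsf3 (0.82 ± 0.23 SE, edgeR adjusted p = 0.0102). Neighbour rows held over 0.5 of the count of Taldo1 (Pddc1) and Mlx (Fam134c), so these are uncertain. Mlx, Taldo1 and Srsf3 did not pass in the length-corrected, blocked fit. In that fit 1 pentose phosphate gene and 1 splicing regulator passed as lower. The share of all genes that passed as lower there is not given here. The counts here are per gene and do not tell the M1 from the M2 isoform of Pkm. None of the 6 lists had a gene that passed in OGD-miR-29 against sham-miR-29 or in sham-miR-29 against sham-empty.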

How the data were processed

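RNA of the 11 cortical culture libraries was depleted of ribosomal RNA and made into TruSeq libraries, per the labels' protocols. The authors deposited raw read counts per gene symbol. The submitters' processing notes name the build mm10 and the tools featureCounts 1.4.3-p1, STAR 2.5.0a and edgeR. Annotation, strand and counting region are not given in the sources used here. Comparison tables deposited by the authors hold log2 fold changes, a likelihood ratio score and p-values with false discovery rates, per the file headers. The column of sham-empty replicate 3 was left out: it summed to 22859, and 92.5% of its values on matched symbols equal the number of annotated same-strand genes in the gene and 10 kb downstream. Of the per-sample columns 0 were unmapped.

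Counts were fitted with edgeR 4.0.16 (R 4.3.3; TMM, filterByExpr, robust quasi-likelihood) on 12119 genes and 4 group means, with all 11 libraries sharing the spread, and p was adjusted over all genes with a threshold of 0.05. CPM uses the TMM-scaled total, mitochondrial rows included. Median counts per gene were 9 to 59, which limits precision for low genes. Isozyme ratios used counts plus 1. Alternatives were DESeq2 1.42.0 and its size factors, limma 3.58.1 (voom), no filter, mitochondrial rows left out, the replicate block, a length trend (lowess, span 0.3) removed from each library, the compared groups alone and left-out libraries. The fit was tested on simulated data. Symbols were matched to GENCODE M21 for 11953 rows, 597 by an older symbol, and 192 stayed unmatched. Copies were found with blastn 2.17.0, and promoters and the miRNA are RefSeq's.

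Same-numbered libraries were cultures of the same dissection day, per the series' design text, so the numbers pair the samples. Their deviations from the group means correlated at -0.09 to 0.23 over 15 pairs (median 0.01), against -0.24 to 0.20 over 30 differently numbered pairs. Because deviations within a group cancel out, the same-numbered and differently numbered correlations are tied to each other. They cannot show on their own whether the pairing matters. The members and lists were chosen with earlier results of these data known. All 10 members are named in every comparison, and listed genes where they passed in any comparison (at most 4 per list, by smallest adjusted p), with the isozyme partners. A planned ratio of Hk1 to its isozyme Hk2 was not computed because Hk2 was not analysed here, which leaves 12 ratio tests.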

Additional observations from a re-analysis of the deposited data

Results flagged for a closer look

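The response to OGD differed between the viruses for 3 of the 10 genes by the test of the interaction itself (edgeR quasi-likelihood). Tpi1 differed by log2 1.43 (adjusted p = 0.0231), with -0.72 under the empty virus and 0.72 under the miR-29 virus. Pkm differed by 1.21 (edgeR adjusted p = 0.0225), from -0.78 to 0.43, and Aldoa by 0.98 (edgeR adjusted p = 0.0326), from -0.65 to 0.32. With the length trend removed, Aldoa fell short at 0.53 (edgeR adjusted p = 0.2502), and at 0.51 with the block added (edgeR adjusted p = 0.261). Tpi1 was at 0.94 without the length trend (edgeR adjusted p = 0.0862). With a library or a replicate number left out, the estimates of these 3 genes stayed at 0.78 or more. Each of the 3 calls was lost in many of those fits, which hold fewer libraries for every gene. No group had the 4 libraries needed to look for a library far from the rest.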

How the results depend on the processing

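Of 1142 values of the 10 genes under alternatives, 31 lost and 7 gained a call. Among those that passed no test, 63 changed sign while within 1 SE of 0 in both fits, and 9 changed sign beyond 1 SE in one or both. The latter all came from a length correction. With the span trend removed, Hk1 moved from 0.17 to -0.26 in OGD-empty against sham-empty (-0.34 with the block) and from -0.06 to 0.53 in the interaction (0.64 with the block), and Gapdh from -0.02 to 0.52 in the first of these, with the block. With the exon length trend removed and the block, a setting chosen after seeing the data, Pfkp moved from 0.47 to -0.18 in OGD-empty against sham-empty. In the interaction it moved from -0.29 to 0.63, and Hk1 to 0.45. Between the viruses after OGD, Pgk1 moved from 0.39 to -0.00578. Against sham-empty, OGD-empty gave 0 called genes of the 10 in the main analysis, 2 with the replicate block (Tpi1 and Pkm), and 1 with the length trend or the exon length trend removed and the block. The replicate block changed no other call among the 10 genes. The interaction gave 3 called genes, and 1 with the length trend removed. With a library or replicate left out, calls were lost there and, for Ldha, between the viruses after OGD. Those fits hold fewer libraries for every gene. No count in the other 3 comparisons left 0.

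The isozyme differences are small and some changed sign. Eno1 to Eno2 between the sham groups was 0.11, and -0.0395 with a pseudocount of 5. With a library left out it was -0.173 to 0.501. Aldoa to Aldoc between the viruses after OGD ran from -0.0229 to 0.676, Ldha to Ldhb there from -0.0243 to 0.239, and Ldha to Ldhb in OGD-miR-29 against sham-miR-29 from -0.0310 to 0.129. The cause was not tested. DESeq2 gave no adjusted p for Gapdh in either OGD against sham comparison or in the interaction, nor for Eno1 and Pgk1 under the miR-29 virus. Gapdh was not tested in 3 fits of the compared groups alone. Rows of 5 to 43 reads (Gapdh and Eno1) limit what can be detected.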
